A study of Sus scrofa with 7 samples.

Results

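Hedgehog signaling genes were followed across porcine extra-embryonic endoderm (pXEN) cells and 2 kinds of porcine embryonic stem cells (ESCs). The 9 genes were listed by name, with no threshold on their values, and are the ligands IHH and SHH, the receptor PTCH1, the signal transducer SMO, the co-receptor BOC, the ligand-binding inhibitor HHIP and the transcription factors GLI1, GLI2 and GLI3. They are 9 of the 29510 genes listed. In the tables, 8 of them carry their symbol, and GLI3 was identified by its Ensembl identifier through a table of gene IDs.

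Secreted Hedgehog ligands bind PTCH1, which otherwise holds the membrane protein SMO inactive. BOC presents ligand to PTCH1, and HHIP binds ligand and takes it away from the receptor. Active SMO acts through the primary cilium to stop the cleavage of GLI2 and GLI3 into repressors, so that the full-length proteins can act as activators, and GLI1, PTCH1 and HHIP are themselves usual targets of the pathway. In the mouse embryo, Ihh is made by the visceral endoderm.

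The study compared 3 pXEN lines with 2 lines of naive-like ESCs (nESC) and 2 lines of primed ESCs (pESC), with 1 RNA-seq library per line and each line taken as 1 replicate. The pXEN lines came from inner cell masses of parthenogenetic blastocysts and grew on mouse embryonic fibroblasts in medium with human LIF, the GSK3 inhibitor CHIR99021, (S)-(+)-dimethindene maleate, minocycline and the ROCK inhibitor Y27632, and were used at passages 26, 26 and 23. The nESC lines, at passages 21 and 22, also grew on mouse embryonic fibroblasts, with FGF, human LIF, the MEK inhibitor PD0325901, CHIR99021, the TGFβ receptor inhibitor SB431542 and doxycycline. The pESC lines, both at passage 20, had been converted from naive-like cells according to the labels and grew on STO cells, a mouse fibroblast line, with activin A, bFGF, EGF and human LIF. Medium and cell type changed together in every comparison, and the feeder in those with pESCs, so their parts cannot be told apart, and p-values measure the spread between lines.

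Each library held between 10408164 and 12995720 reads counted on genes. As a check of the labels, 9 of the 10 tested extra-embryonic endoderm markers, of 11 listed, rose in pXEN cells over either ESC type. The summed levels of the list were between 1101 and 1151 FPKM in pXEN lines and between 14.0 and 22.0 FPKM in ESC lines. SOX7 was not tested and had 3, 0 and 0 reads in pXEN lines. GATA4, SOX17, HNF4A, FOXA2, AFP and TTR had at most 21 reads in any ESC line. They passed the filter on low counts through the pXEN lines, so the count of markers only describes them. FPKM is the fragment count divided by the length of the gene and by a library total. One library stood apart, pXEN line 2. The 13 measured fibroblast markers, of 14 listed, summed to 256 FPKM there against 18.9 and 21.5 FPKM in lines 1 and 3, of which COL1A1 gave 144, COL3A1 77.5 and COL1A2 21.1 FPKM. No other of these markers exceeded 5.10 FPKM in line 2, and TWIST1, TWIST2, PRRX1, FAP and PDGFRB lay between 0.109 and 0.553 FPKM. Line 2 also held more of the endoderm products AFP (176 FPKM against 3.06 and 1.69) and TTR (24.5 against 6.49 and 1.64), and 30 reads of the pluripotency factor SOX2 against 0 in lines 1 and 3. Other markers went both ways. Of the endoderm markers, FOXA2, DAB2 and APOA1 were highest in line 2, and GATA4 (188 FPKM against 239 and 239), GATA6, SOX17, HNF4A and PDGFRA were lowest. Of the pluripotency markers, DNMT3B, UTF1 and KLF4 were highest there, and NANOG (4.50 FPKM against 15.5 and 13.0), SALL4 and TDGF1 were lowest. Line 2 had 38 reads on genes of chromosome Y, against 1 and 3 in lines 1 and 3 and between 0 and 11 in ESC lines, and the source of these reads was not tested. The fibroblast markers summed to 40.4 and 48.4 FPKM in nESC lines and 72.9 and 105 FPKM in pESC lines. Among them DCN, LUM and FAP were at 0 in both nESC lines, and FAP was also at 0 in both pESC lines, where DCN had 18.3 and 38.8 FPKM. TWIST1, TWIST2, PRRX1 and FBN1 were higher in both nESC lines than in any pXEN line, and COL1A1, COL3A1, COL5A1 and POSTN were lower. TWIST1 had 24.2 and 28.1 FPKM in nESC lines and 15.9 and 18.3 FPKM in pESC lines, against at most 0.201 FPKM in pXEN lines. Over all genes tested, 28.3% were called higher and 26.2% lower in pXEN cells against nESCs, and 23.9% and 24.4% against pESCs. Of 11 tested fibroblast markers, 4 rose and 4 fell against nESCs and 1 rose and 5 fell against pESCs, which became 4 and 5 and 1 and 7 without line 2. Of 8 tested pluripotency markers, 4 rose and 2 fell against nESCs and 2 rose and 5 fell against pESCs, which became 4 and 4 and 2 and 5. For the Hedgehog genes, where leaving out this line changed a call or moved a value by over 1.5 times, the value without it is given.

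All comparisons used edgeR's quasi-likelihood test on the counts, in 1 model of the 7 libraries, with Benjamini-Hochberg adjustment over the 17447 genes tested and calls at an adjusted p below 0.05. Of the 9 Hedgehog genes 8 were tested, since GLI1 fell below the filter on low counts. Between pXEN cells and nESCs, 4 of the 8 rose (IHH, SHH, SMO and HHIP), where 28.3% of all genes tested were called higher. The other 4 fell (PTCH1, BOC, GLI2 and GLI3), where 26.2% of all genes were called lower. The median log2 fold change of the 8 was −0.26, against 0 over all genes tested. Between pXEN cells and pESCs, 3 rose (IHH, SHH and PTCH1; background 23.9%), 3 fell (BOC, GLI2 and GLI3; background 24.4%) and SMO and HHIP were not called, with a median of 0.32 against −0.01 over all genes. These comparisons share the pXEN libraries. Between pESCs and nESCs, 2 rose (SMO and BOC; background 19.0%), PTCH1 alone fell (background 13.3%) and 5 were not called, with a median of 0.89 against 0.01. Without pXEN line 2 the pXEN counts were 4 higher and 4 lower against nESCs (30.2% and 29.6% of all genes) and 4 higher and 3 lower against pESCs (26.5% and 28.7%). The number higher in pESCs than in nESCs was 5 without pXEN line 2 (24.1% of all genes), 4 without nESC line 2 (14.1%) and 1 without pXEN line 1 (17.8%), nESC line 1 (12.3%) or pESC line 1, where 2096 of the 17447 genes were called higher. IHH, SHH, GLI2 and GLI3 lay at or near 0 in at least 1 cell type and passed the filter through the types in which they were high, so these counts describe the genes and carry no further weight.

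**Figure D1:**
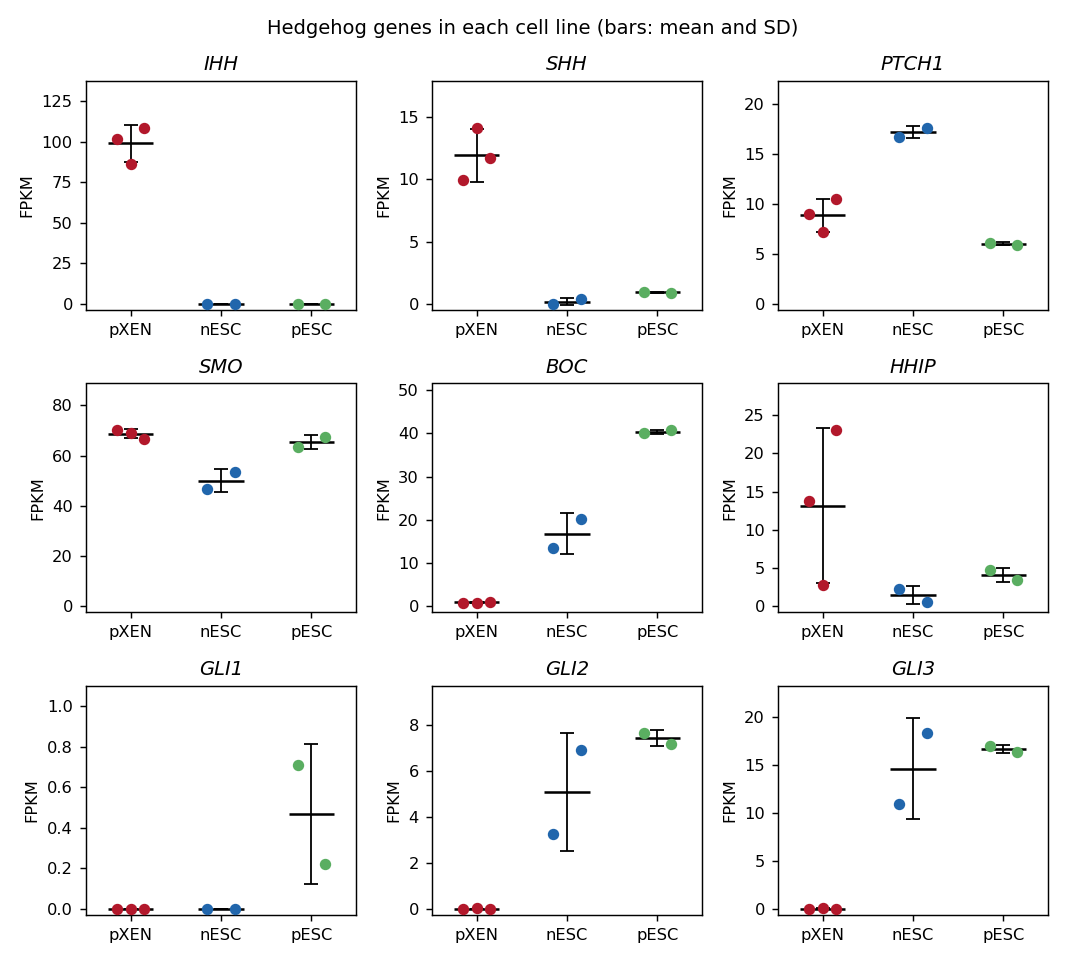
FPKM (vertical axes, linear and set for each gene) of the 9 Hedgehog genes in pXEN, nESC and pESC lines, with 1 point per line and black bars for the mean and SD of 3, 2 and 2 lines. IHH and SHH are high in the pXEN lines, GLI2, GLI3 and BOC are high in the ESC lines, and HHIP spreads from 2.80 to 23.0 FPKM among the pXEN lines.

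Both ligands were higher in pXEN cells than in either ESC type. IHH (ENSSSCG00000016204, chromosome 15, 134122695 to 134129391 in Sscrofa10.2, minus strand), which the study also counts among its endoderm-associated genes, reached 102, 86.5 and 108 FPKM in pXEN lines 1, 2 and 3, from 2552, 2534 and 3039 reads. It was listed at 0 in both nESC lines and had 5 and 1 reads in the pESC lines, or 0.155 and 0.0291 FPKM. All pXEN lines lay far above all ESC lines, and the pXEN mean was 98.9 ± 11.3 FPKM (SD, n = 3). Taking 3 counts in each nESC library as the floor of detection, the level in pXEN cells was at least 995-fold higher (edgeR adjusted p = 1.88e-06). Against pESCs the ratio was 1100, with a 95% counting interval of 505 to 3000 (edgeR adjusted p = 3.34e-06), which covers counting error only. The pESC reads are few, and the fitted log2 difference of 10.04 became 11.54 without pESC line 1 and 9.28 without pESC line 2. In bulk RNA, a change in the share of cells that make a transcript and a change in its amount per cell cannot be told apart.

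SHH (ENSSSCG00000016416, chromosome 18, 2664794 to 2673751, plus strand), the ligand known for patterning the neural tube and limb, was lower than IHH in every pXEN line, at 9.93, 14.1 and 11.7 FPKM. The nESC lines stood at 0 and 0.370 FPKM, from 0 and 5 reads, and the pESC lines at 0.960 and 0.899 FPKM, from 14 reads each. The 3 groups did not overlap. The ratio of pXEN cells to nESCs was 66.0, with a counting interval of 28.1 to 204 (edgeR adjusted p = 0.000235). All 5 nESC reads came from line 2, so the fitted log2 difference of 5.96 was 4.96 without nESC line 1, and without nESC line 2 it was set against 0 reads and gives no size. Relative to pESCs, SHH was 12.8-fold higher in pXEN cells (log2 fold change 3.68, SE 0.565, edgeR adjusted p = 0.00115).

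Between the ESC types neither ligand was called in the edgeR test (adjusted p = 0.061 for IHH and 0.0636 for SHH), at 6 and 0 reads of IHH and 28 and 5 reads of SHH in pESCs and nESCs. These calls depended on the processing. DESeq2 called both (adjusted p = 0.042 and 0.0158), edgeR with no filter on low counts called IHH (0.0475) and limma on log2(FPKM + 0.1) called SHH (0.0423). With edgeR, both were called without pXEN line 2 (adjusted p = 0.046 and 0.0457), IHH also without pESC line 2 (0.028) and SHH without nESC line 2 (0.00752).

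DHH, the remaining Hedgehog ligand, was near the floor throughout, with 6, 6 and 7 reads in pXEN lines, 0 and 1 in nESC lines and 3 and 0 in pESC lines. The 3 ligands summed to 112, 101 and 121 FPKM in pXEN lines, and IHH made up 90.8%, 85.7% and 89.9% of that sum. In ESC lines the sum did not exceed 1.27 FPKM. IHH was thus the main ligand transcript of all 3 pXEN lines, at no less than 6.11 times the level of SHH.

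PTCH1 (ENSSSCG00000027312, chromosome 10, 30847386 to 30915236, plus strand), the receptor that restrains SMO, was highest in nESCs, at 16.7 and 17.6 FPKM. The pXEN lines held 8.99, 7.14 and 10.5 FPKM and the pESC lines 6.11 and 5.90 FPKM. The order nESC, pXEN, pESC held without overlap between groups. PTCH1 was 1.95-fold lower in pXEN cells than in nESCs (log2 fold change −0.96, SE 0.152, edgeR adjusted p = 0.00107) and 2.89-fold lower in pESCs than in nESCs (−1.53, SE 0.173, adjusted p = 0.000531). The step between pXEN cells and pESCs was smaller, 1.48-fold (0.57, SE 0.158, edgeR adjusted p = 0.0188). It was not called without pESC line 1 (0.59, adjusted p = 0.0882) or pESC line 2 (0.54, adjusted p = 0.111), at differences close to the full one.

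SMO (ENSSSCG00000016569, chromosome 18, 20519920 to 20548818, minus strand), the membrane protein that passes the signal into the cell, was well expressed in all lines. Its level was 70.1, 69.2 and 66.7 FPKM in pXEN lines, 46.9 and 53.3 FPKM in nESC lines and 63.3 and 67.3 FPKM in pESC lines. The nESC lines were below the rest, while pXEN and pESC lines overlapped. Among the pXEN lines the highest level was 1.05 times the lowest, a narrower spread than that of 97.0% of the 15027 genes averaging 10 counts or more. SMO rose 1.37-fold in pXEN cells over nESCs (log2 fold change 0.45, SE 0.101, edgeR adjusted p = 0.00611). This call was lost without nESC line 1 (0.35, adjusted p = 0.0585), and with upper-quartile scaling, which put the median of all genes at −0.16, the value was 0.28 (adjusted p = 0.0384).

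SMO was also 1.29-fold higher in pESCs than in nESCs (0.37, SE 0.109, edgeR adjusted p = 0.0346). With upper-quartile scaling this did not pass (0.28, adjusted p = 0.0746), nor did it without pXEN line 1, nESC line 1, pESC line 1 or pESC line 2 (adjusted p = 0.0597, 0.194, 0.104 and 0.188), where the differences were 0.37, 0.28, 0.41 and 0.32. Between pXEN cells and pESCs the difference was 0.08 (SE 0.0996, edgeR adjusted p = 0.54).

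BOC (ENSSSCG00000025826, chromosome 13, 156163781 to 156182288, plus strand), a membrane co-receptor for Hedgehog ligands, stood at 0.812, 0.841 and 1.12 FPKM in pXEN lines, 13.4 and 20.2 FPKM in nESC lines and 40.0 and 40.7 FPKM in pESC lines. Each group was separate, in the order pXEN, nESC, pESC. BOC was 18.2-fold lower in pXEN cells than in nESCs (log2 fold change −4.18, SE 0.221, edgeR adjusted p = 4.07e-06) and 43.1-fold lower than in pESCs (−5.43, SE 0.224, adjusted p = 2.69e-06). It was 2.37-fold higher in pESCs than in nESCs (1.25, SE 0.206, edgeR adjusted p = 0.0031). The 1129 tested genes of chromosome 13 had medians of 0.46 and 0.40 in the pXEN comparisons with nESCs and pESCs, while BOC was lower in both. On the chromosomes of the other Hedgehog genes these medians lay between −0.159 and 0. The source of the shift of chromosome 13 was not tested.

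HHIP (ENSSSCG00000009045, chromosome 8, 88870162 to 88941208, minus strand), the secreted and membrane-bound ligand trap, had 13.7, 2.80 and 23.0 FPKM in pXEN lines. Its ratio of highest to lowest pXEN level was the largest among the Hedgehog genes that averaged 10 counts or more in these lines. The nESC lines had 2.30 and 0.634 FPKM and the pESC lines 4.80 and 3.49 FPKM. Line 2, the pXEN library that stood apart, was the lowest of its group and lay below both pESC lines. The highest pXEN level was 8.22 times the lowest, and 1.92% of the 15027 genes had a larger ratio. HHIP was 8.87-fold higher in pXEN cells than in nESCs (log2 fold change 3.15, SE 0.883, edgeR adjusted p = 0.0169), which was lost without nESC line 2 (2.51, adjusted p = 0.108) and was 4.35 without nESC line 1 and 2.48 without pXEN line 3. The difference from pESCs was 1.67 (SE 0.791, edgeR adjusted p = 0.117). It was 2.15 without pXEN line 2 (adjusted p = 0.00256) and 0.997 without pXEN line 3 (adjusted p = 0.331). The part in these values of what sets line 2 apart was not tested. Between the ESC types the difference was 1.48 (SE 0.911, edgeR adjusted p = 0.255), and leaving out pXEN line 2 lowered the adjusted p to 0.0381. It was 2.68 without nESC line 1 and 0.84 without nESC line 2, neither of them called.

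**Figure D2:**
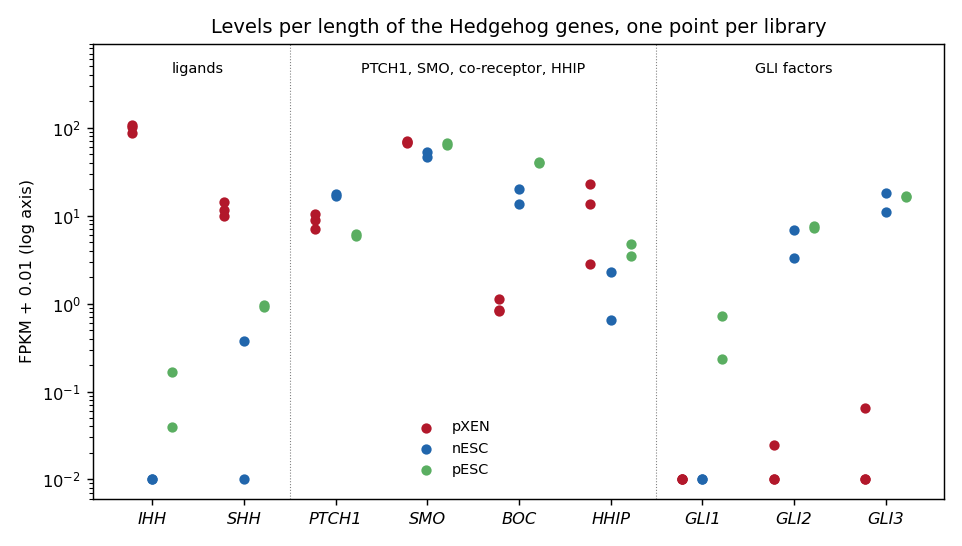
FPKM plus 0.01 on a log axis for the 9 Hedgehog genes, ordered as ligands, then PTCH1, SMO, the co-receptor BOC and HHIP, then GLI factors, with 1 point per library colored by cell type. SMO lies between 46.9 and 70.1 FPKM in all 7 libraries. IHH is high in pXEN lines and at or near 0 in ESC lines. GLI2 and GLI3 are at or near 0 in pXEN lines and between 3.27 and 18.4 FPKM in ESC lines.

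GLI2 and GLI3 were high in the ESC lines and near 0 in the pXEN lines. GLI2 (ENSSSCG00000015733, chromosome 15, 35267703 to 35357027, minus strand), the main activator of the pathway, had 0, 1 and 0 reads in pXEN lines. It had 234 and 477 reads in nESC lines, or 3.27 and 6.91 FPKM, and 572 and 573 reads in pESC lines, or 7.67 and 7.20 FPKM. The pXEN lines were at or under the floor of 3 counts, and every ESC line was far above it. With a single read over the 3 pXEN libraries, nESCs exceeded them by a ratio of 969 with a counting interval of 173 to 38300 (edgeR adjusted p = 1.05e-05). For pESCs the ratio was 1410, with an interval of 253 to 55800 (edgeR adjusted p = 1.22e-05).

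GLI3 (ENSSSCG00000016763, chromosome 18, 57791952 to 57804346, plus strand), known mostly as the repressor among the GLI factors, had 0, 4 and 0 reads in pXEN lines. The nESC lines held 838 and 1363 reads, or 10.9 and 18.4 FPKM, and the pESC lines 1361 and 1398 reads, or 17.0 and 16.3 FPKM. On these models, all 4 GLI3 reads and the only GLI2 read of the pXEN group came from line 2, the library that stood apart, and the part of what sets it apart was not tested. The ratio to pXEN cells was 750 for nESCs (interval 293 to 2760, edgeR adjusted p = 4.74e-06) and 850 for pESCs (interval 332 to 3120, edgeR adjusted p = 7.24e-06). A further model of GLI3 held 1, 11 and 4 reads in pXEN lines 1, 2 and 3. With both models summed, the log2 difference was −7.56 from nESCs and −7.71 from pESCs, in place of −9.44 and −9.62. Without pXEN line 2, GLI2 and GLI3 stayed called on the models above (adjusted p between 2.56e-06 and 2.78e-05), but against 0 reads in the pXEN group the fit gives no size.

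Between pESCs and nESCs, the log2 fold change was 0.53 for GLI2 (SE 0.336, edgeR adjusted p = 0.267) and 0.17 for GLI3 (SE 0.316, adjusted p = 0.718). Both genes were lower in nESC line 1 than in the other 3 ESC lines. Without nESC line 2 the GLI2 difference was 1.18 (adjusted p = 0.0373), and that of GLI2 between pXEN cells and nESCs was −8.86 in place of −9.51. On the main models alone, GLI2 and GLI3 together amounted to 0, 0.0695 and 0 FPKM in pXEN lines, 14.1 and 25.3 FPKM in nESC lines and 24.7 and 23.5 FPKM in pESC lines.

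GLI1, which the pathway itself switches on, was close to undetected in all cell types. The row with its symbol (ENSSSCG00000028851, chromosome 5, 24800132 to 24801341, minus strand) is a model of 334 bases, with no reads in pXEN and nESC lines and 3 and 1 reads in pESC lines. With its 2 further models included, the sums were 2, 0 and 1 reads in pXEN lines, 9 and 7 in nESC lines and 12 and 6 in pESC lines. These totals lie near the floor, and no difference was tested. The intervals of these models overlap DTX3 on the same strand and KIF5A and ARHGAP9 on the opposite strand, so the origin of single reads is uncertain.

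The annotation also splits other Hedgehog genes, and their further models gave a second reading. Those of GLI2, GLI3 and BOC were called lower in pXEN cells than in nESCs, with log2 fold changes of −6.40, −5.65 and −5.57 (edgeR adjusted p = 0.00637, 5.17e-05 and 0.000157), and than in pESCs. The one for GLI2 held no read in any pXEN line, so its value depends on the prior count. For HHIP the further model was 3.74 higher in pXEN cells than in nESCs (adjusted p = 0.00969), with 53, 18 and 132 reads in pXEN lines 1, 2 and 3, again lowest in line 2. The further models of HHIP and BOC lie on the strand opposite to the main model.

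**Figure D3:**
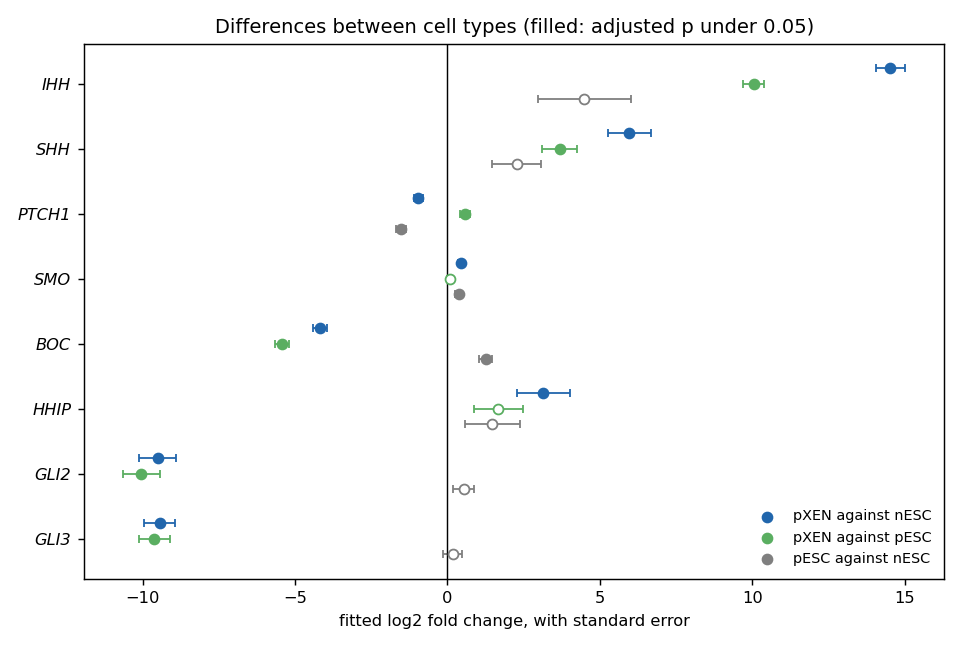
Fitted log2 fold changes with their standard errors for the 8 tested Hedgehog genes in the comparisons of pXEN with nESC, pXEN with pESC and pESC with nESC. IHH and SHH lie to the side of higher levels in pXEN cells and BOC, GLI2 and GLI3 to the other, while fitted values of genes with 0 reads in a group, such as IHH against nESCs, depend on the prior count and do not measure a size.

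Other genes of the pathway were taken by their roles. Of 6 tested genes that process or release ligand, 3 rose and 2 fell in pXEN cells against nESCs, and 2 rose and 4 were not called against pESCs in the edgeR test. Without pXEN line 2, SCUBE3 fell against nESCs (−1.68, adjusted p = 0.0058) and pESCs (−1.315, adjusted p = 0.0207). DISP2, called lower against nESCs with all lines, was then not called (−1.86, adjusted p = 0.0673). Over all genes tested, 28.3% were called higher and 26.2% lower against nESCs and 23.9% and 24.4% against pESCs, and with few genes in each pathway list its counts are read as a description of the genes named. SCUBE1, a secreted protein of the family that helps release ligand, had 7.47, 13.7 and 7.01 FPKM in pXEN lines, 0.155 and 0.769 FPKM in nESC lines and 1.88 and 1.25 FPKM in pESC lines. The pXEN lines exceeded nESCs by 4.34 (edgeR adjusted p = 0.00061) and pESCs by 2.59 (0.00494) on the log2 scale, with the highest level in line 2. HHAT, the enzyme that attaches palmitate to Hedgehog ligands, rose by 3.24 (adjusted p = 0.00113) and 1.49 (0.0268). DISP1, which exports lipid-modified ligand, rose by 1.87 against nESCs (adjusted p = 0.00369), and its difference from pESCs was 0.82 (0.0857). SCUBE2, another member of the SCUBE family, was lower than in nESCs (−1.60, adjusted p = 0.00792).

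Of the listed receptors and co-receptors outside the 9 genes, CDON and GPC3 were measured. GPC3, a glypican that binds Hedgehog ligand and competes with PTCH1 for it, stood at 902, 688 and 1043 FPKM in pXEN lines, 0.435 and 0.652 FPKM in nESC lines and 2.23 and 2.74 FPKM in pESC lines. This was a log2 difference of 10.64 from nESCs (edgeR adjusted p = 4.43e-07) and 8.47 from pESCs (1.58e-06). CDON, a co-receptor related to BOC, had 7.57, 3.94 and 6.91 FPKM in pXEN lines, 11.3 and 18.3 FPKM in nESC lines and 34.2 and 33.2 FPKM in pESC lines. It fell as BOC did, with −1.28 against nESCs (adjusted p = 0.00623) and −2.45 against pESCs (0.000297). GAS1 and LRP2 were not analysed here.

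Among 11 transducers between SMO and the GLI factors, 2 rose, 4 fell and 5 were not called against nESCs, with a median log2 fold change of 0.09, and 3 rose, 5 fell and 3 were not called against pESCs, with a median of −0.38. Beside the shares over all genes (28.3% and 26.2%, 23.9% and 24.4%), these counts do not set the transducers apart. SUFU, which holds GLI proteins in the cytoplasm, had 11.8, 13.4 and 10.3 FPKM in pXEN lines, 24.4 and 29.4 FPKM in nESC lines and 20.5 and 20.4 FPKM in pESC lines. Its log2 fold changes were −1.19 (edgeR adjusted p = 0.000427) and −0.78 (0.00459). GSK3B, a kinase that phosphorylates GLI proteins and the target of CHIR99021, rose by 1.18 (adjusted p = 0.00146) and 1.20 (0.00162). The media of pXEN cells and nESCs both held CHIR99021, at a lower concentration for pXEN cells. PRKACA, the catalytic subunit of the kinase that starts GLI processing, was 0.59 higher than in pESCs (adjusted p = 0.00354). SPOP, an adaptor for GLI degradation, was −0.73 against nESCs (adjusted p = 0.00389). Between pESCs and nESCs, where 19.0% of all genes were called higher and 13.3% lower, 1 of the 11 was called, CSNK1A1, a GLI kinase (0.59, adjusted p = 0.00822). Without pXEN line 2, 3 of the 11 were called higher and 2 lower in pESCs, where the shares over all genes were 24.1% and 19.2%.

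The 9 tested genes of the primary cilium, the organelle through which SMO signals, showed 2 higher, 3 lower and 4 not called in pXEN cells against nESCs, and 2 higher, 2 lower and 5 not called against pESCs, near the shares over all genes (28.3% and 26.2%, 23.9% and 24.4%). OFD1, a protein of the basal body, rose by 1.48 (edgeR adjusted p = 8.17e-05) and 1.60 (8.16e-05), from 3.01 to 3.52 FPKM in the ESC lines to 9.57, 9.07 and 9.12 FPKM in pXEN lines. IFT52, a part of the transport machinery of the cilium, was −1.35 (adjusted p = 0.000185) and −1.05 (0.000876). IFT172 was −1.06 against nESCs (adjusted p = 8.17e-05) and −0.15 against pESCs, where it was not called. IFT88, another transport protein, was 1.11 higher in pXEN cells than in pESCs (adjusted p = 0.00481) and lower in pESCs than in nESCs (−1.36, adjusted p = 0.00445).

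Of 15 genes known as Hedgehog targets in other tissues that are in the tables, 11 were tested. Against nESCs 5 rose, 3 fell and 3 were not called in pXEN cells, with a median of 0.81. Against pESCs 3 rose, 4 fell and 4 were not called, with a median of −0.44. Over all genes the shares were 28.3% and 26.2%, and 23.9% and 24.4%. Without pXEN line 2, NR2F2 was also called lower against nESCs (−0.54, edgeR adjusted p = 0.0299). This made 5 higher and 4 lower, where the shares over all genes were 30.2% and 29.6%. BMP4, a ligand of the BMP pathway, had 27.1, 22.8 and 39.2 FPKM in pXEN lines and between 1.92 and 4.80 FPKM in ESC lines, a log2 difference of 3.75 from nESCs (edgeR adjusted p = 7.05e-05) and 2.99 from pESCs (0.000231). PRDM1, a transcriptional repressor, rose by 2.91 (adjusted p = 0.000342) and 1.88 (0.00272). NR2F1, a nuclear receptor, stood at 3.81, 8.37 and 5.96 FPKM in pXEN lines and between 36.8 and 63.2 FPKM in ESC lines, and was −3.16 (adjusted p = 6.08e-05) and −2.63 (0.000212). MYCN, a MYC family factor, rose by 2.24 against nESCs (adjusted p = 2.05e-05), while its difference from pESCs was −0.09. Between pESCs and nESCs 4 of the 11 rose (19.0% over all genes) and 1 fell (13.3%), NKX6-1, a neural target of SHH, which had 2.43 and 2.52 FPKM in nESC lines and 0.0933 and 0.175 FPKM, from 1 and 2 reads, in pESC lines (adjusted p = 0.0104). Without pXEN line 2 these counts were 6 and 2 (24.1% and 19.2% over all genes). These genes answer to many other signals, and the pathway's part in their levels was not tested.

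**Figure D4:**
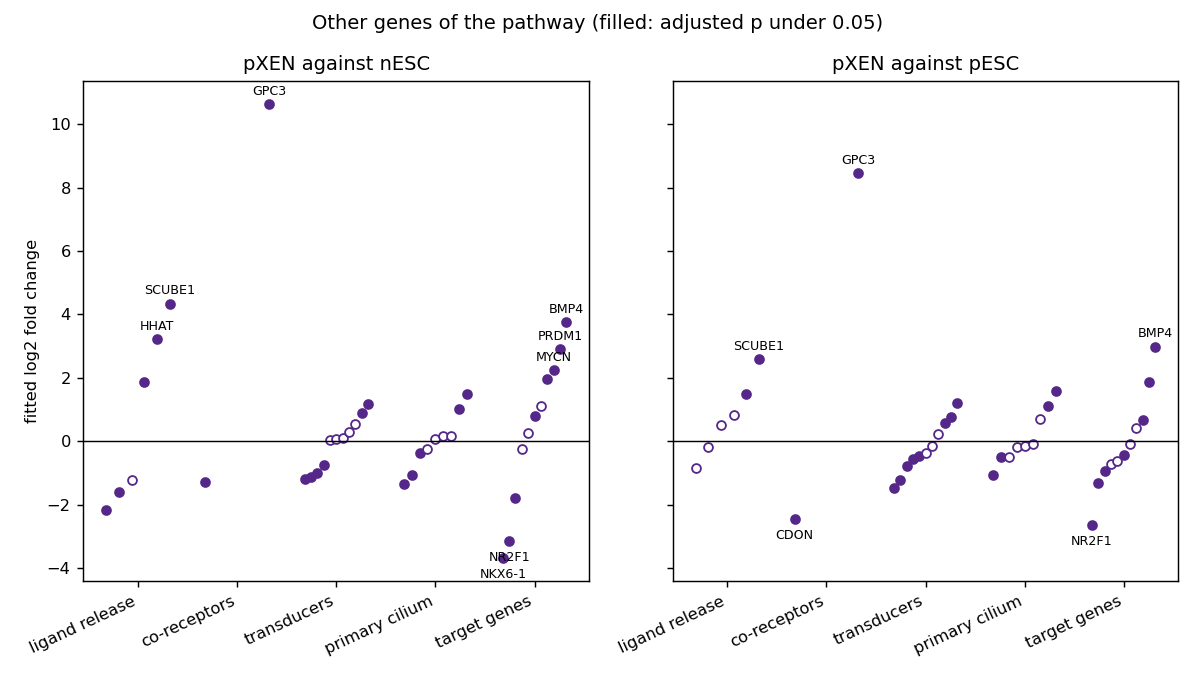
Log2 fold changes of the tested genes of the Hedgehog pathway lists in pXEN cells, against nESCs and against pESCs, with 1 point per gene. Genes of each list lie on both sides of 0, with GPC3 at 10.64 and 8.47 the farthest from it.

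Over the 7 libraries, the genes whose log2(FPKM + 0.1) followed IHH most closely were A1BG (Pearson's r = 0.9996), LHFPL2 (0.9991) and REEP6 (0.9991). A1BG, a plasma glycoprotein gene, had 116, 95.3 and 105 FPKM in pXEN lines and at most 0.621 FPKM in ESC lines. PTCH1 was followed most closely by CROT (r = 0.9946), CELSR3 (0.9943) and IGDCC4 (0.9916). CROT, a peroxisomal carnitine acyltransferase, had 7.65, 6.18 and 8.79 FPKM in pXEN lines, 11.9 and 13.2 FPKM in nESC lines and 5.04 and 5.32 FPKM in pESC lines. The 7 points share their cell type in 3 groups, so these correlations are given as a description only.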

How the data were processed

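RNA-seq was analysed from 7 porcine lines (3 pXEN, 2 nESC, 2 pESC), grouped by the labels. The authors deposited read counts per gene without normalization, and FPKM values scaled by gene length and a total set for each library. The libraries were directional and rRNA-depleted. The submitters' processing notes name HISAT2 2.0.5, featureCounts 1.5.0-p3, edgeR 3.22.5 and Sscrofa10.2. The strand setting of counting is not given in the sources used here.

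Counts were tested with edgeR 4.0.16 in R 4.3.3 (TMM, filterByExpr, quasi-likelihood test, Benjamini-Hochberg adjustment over 17447 genes), after the script was tested on simulated data. Alternatives were upper-quartile scaling, DESeq2 1.42.0, other filters, limma 3.58.1 on log2(FPKM + 0.1) or log2(FPKM + 1), only the compared libraries, a replicate block, summed gene models and leaving out each library. Summed models, and the gene lists without pXEN line 2, were added after the data were seen. Ratios of low counts carry exact 95% counting intervals, and 3 counts per library were the floor. The Hedgehog genes and the pathway and marker lists were chosen with earlier results of these data known. All 9 genes are named, and of each pathway list genes among the 4 with the smallest adjusted p in a comparison. The genes most like IHH and PTCH1 were the 3 with the highest Pearson's r of log2(FPKM + 0.1). Gene symbols came from the tables and, for 1785 genes without one, from a table of gene IDs. No sequences are shown.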

Additional observations from a re-analysis of the deposited data

How the results depend on the processing

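With at least 10 counts in every library, which left 4 Hedgehog genes tested, 2 were called higher and 2 lower in pXEN cells against nESCs (27.5% and 27.1% of all genes), and 1 and 1 against pESCs (23.5% and 22.6%). The number higher in pESCs than in nESCs was 1 with upper-quartile scaling (17.5% of all genes), 4 with DESeq2 (19.3%) and between 1 and 5 with a library left out (2096 to 4209 of 17447 genes). The SMO difference between pXEN cells and pESCs turned to −0.0023 with upper-quartile scaling, and that of GLI3 between pESCs and nESCs ranged from −0.16 to 0.60 with a library left out. Line numbers did not pair the samples (correlations of deviations between −0.0129 and 0.0736). With the numbers as a replicate block, PTCH1 between pXEN cells and pESCs (0.43, adjusted p = 0.058) and SMO between ESC types (0.37, adjusted p = 0.0614) were not called, and HHIP between ESC types was (1.74, adjusted p = 0.0362), in edgeR, while HHIP in pXEN cells was 2.38 against nESCs and 0.64 against pESCs. Over all alternatives, 347 fold changes of Hedgehog genes kept their direction and side of the threshold, 11 lost and 12 gained a call and 2 reversed. Causes were not tested. The groups of 2 lines and the few reads of GLI1, DHH and, in ESCs, IHH and SHH limit the precision.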
